A study of Mus musculus with 12 samples.

Results

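The semaphorin, ephrin and Slit guidance genes were followed in satellite cells, the resident stem cells of skeletal muscle, sorted from mice with or without Cxcr4, the receptor of the chemokine Cxcl12. Members were taken by name: all protein-coding rows of the count table for the semaphorins of classes 3 to 7, the plexins, both neuropilins, the ephrins, the Eph receptors, Slit1 to Slit3 and Robo1 to Robo4. This gave 60 genes of 55401 deposited, and all 60 passed the filter on low counts, which left 25771 genes for testing. They comprise 20 semaphorins, 9 plexins and 2 neuropilins (31 genes of the semaphorin system), 8 ephrins and 14 Eph receptors (22 genes), and 3 Slits and 4 Robos (7 genes).

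The 12 RNA-seq libraries fall into 4 groups. They are called WT quiescent (n = 4) and KO quiescent (n = 4) for freshly sorted cells, and WT activated (n = 2) and KO activated (n = 2) for cells kept overnight in growth medium. Every mouse was adult and carried the floxed Cxcr4 allele on both chromosomes together with the Pax7-ZsGreen reporter, and ZsGreen+ cells of the hind limbs were sorted. The KO mice also carried Pax7-creERT2, which drives a tamoxifen-dependent Cre in Pax7-expressing cells. Tamoxifen was given to the mice of all 4 groups, WT included, at 80 mg/kg for 5 days. Per the paper's methods, a tamoxifen diet followed. The labels number the replicates without tying them to mice, so p-values measure the spread between these libraries.

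Guidance genes encode cues and their receptors, best known for steering axons and growing vessels. Semaphorins signal through plexins, with neuropilins as co-receptors for the secreted class 3; ephrins and Eph receptors signal between touching cells, often in both directions; secreted Slits bind Robo receptors. In muscle, such cues are known from motor nerve and vessel patterning, and Eph-ephrin contacts from the guidance of satellite cells moving along fibres.

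Quiescent and activated libraries differed in more than culture. The total count was 12775593 to 23717013 per quiescent library and 3172164 to 5427280 per activated library, and 1 gene annotated as ribosomal RNA, CT010467.1, took up to 0.807% of the counts in the former and 11.5 to 40.3% in the latter. Xist, which is transcribed in female cells, was at 1.20 to 7.17 CPM in the quiescent and at 451 to 817 CPM in the activated libraries, while Y-linked genes summed to at least 358 CPM in the former and to at most 2.51 CPM in the latter. State, depth and sex therefore cannot be told apart, which matters in particular for the X-linked members Efnb1, Plxna3 and Plxnb3. The satellite cell marker Pax7 was present in all 12 libraries (71.2 to 482 CPM). All 10 muscle fibre markers were higher on activation in both genotypes, their sum going from 321 to 1091 CPM in the quiescent to 7842 to 18969 CPM in the activated libraries. Of 12 satellite cell markers 10 were lower on activation in WT and 11 in KO, with sums of 6050 to 9381 CPM against 2331 to 3544 CPM. Of 12 endothelial markers 5 and 4 were lower, with sums of 408 to 1863 CPM against 159 to 911 CPM. Cxcr4 itself was at 61.2, 59.1, 89.6 and 112 CPM in WT quiescent and at 17.6, 21.2, 12.5 and 17.1 CPM in KO quiescent libraries (log2 fold change -2.24, adjusted p = 0.00477). In the activated libraries it was at 33.3 and 14.5 CPM in WT and at 5.39 and 13.7 CPM in KO (log2 fold change -1.35, adjusted p = 0.381). CPM here are counts brought to a common library size with the trimmed mean of M values (TMM), and comparisons between genes are given per kilobase of exon. A gene is "called" where edgeR's quasi-likelihood test gave an adjusted p under 0.05 over all genes tested, the change exceeded 1 on the log2 scale in size, and the libraries compared held more than 10 counts on average.

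In freshly sorted cells the guidance transcripts at the highest level per exon length were Epha2, Sema4c, Plxnd1, Plxnb2 and Sema7a. Epha2, an Eph receptor tyrosine kinase, was at 43.3 ± 8.34 CPM per kb (SD, n = 8). Sema4c, a transmembrane semaphorin and ligand of Plxnb2, followed at 31.5 ± 5.85 CPM per kb. Plxnd1, the receptor of Sema3e, was at 26.7 ± 4.41 CPM per kb and Plxnb2 at 23.8 ± 2.24 CPM per kb, while Sema7a, a GPI-anchored semaphorin, was at 19.8 ± 10.5 CPM per kb. Each of these 5 overlapped its neighbour in this order within 1 SD. Among the ephrins, Efnb2 (11.8 ± 3.12), Efnb1 (11.7 ± 3.03) and Efna1 (11.04 ± 4.45 CPM per kb) lay within 1 SD of each other. The Slit system was low apart from Robo4, a Robo family member of endothelial cells, at 9.13 ± 4.8 CPM per kb. Robo1 was at 2.27 ± 0.662 CPM per kb, Slit3 at 1.34 ± 0.572 and Slit1 at 0.371 ± 0.206 CPM per kb. Epha8, at 0.0640 CPM per kb, was the lowest of the 60.

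**Figure D1:**
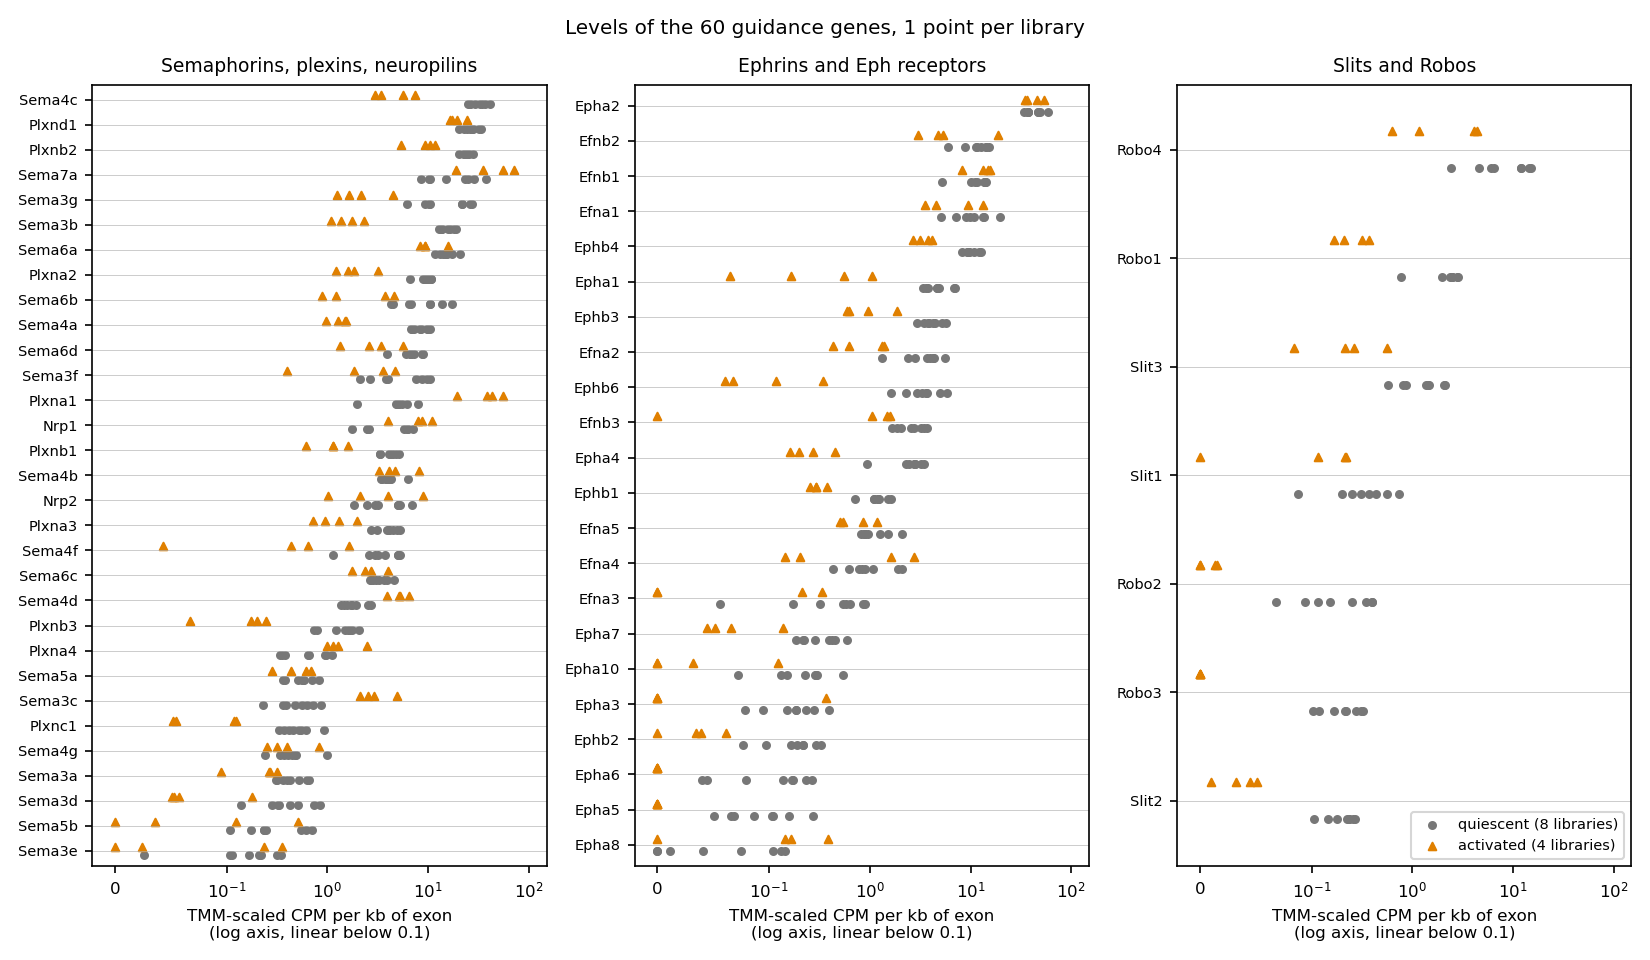
TMM-scaled CPM per kb of exon (horizontal, log axis that is linear below 0.1) for each of the 60 genes, with 1 grey circle for each of the 8 quiescent and 1 orange triangle for each of the 4 activated libraries. Sema4c, Sema3b and Plxna2 lie lower in every activated than in any quiescent library, Plxna1, Sema3c and Sema4d lie higher, and Epha2 overlaps between the states.

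Part of the spread among quiescent libraries went with endothelial and pericyte markers. The summed level of 12 endothelial markers, all 12 detected in every library, was 1720 CPM in WT 1, 1743 CPM in WT 2, 1863 CPM in KO 1 and 1720 CPM in KO 3, against 698 CPM in WT 3, 826 CPM in WT 4, 673 CPM in KO 2 and 408 CPM in KO 4. In 18 of the 60 members the 4 highest quiescent libraries were exactly the 4 with the highest endothelial sum, against 5.49% of all genes tested. They were Efnb2, Ephb2, Ephb4, Nrp1, Nrp2, Plxna4, Plxnb1, Plxnb3, Plxnd1, Robo4, Sema3b, Sema3f, Sema3g, Sema4c, Sema5a, Sema6b, Sema7a and Slit3. The ratio of the 2 sets of means ran from 1.24 in Ephb4 and Plxnb1 to 2.89 in Sema3f. Robo4 was at 63.5, 63.6, 80.1 and 76.1 CPM in the 4 endothelial-rich libraries and at 24.3, 32.4, 34.2 and 12.8 CPM in the others. Nrp1, a co-receptor for class 3 semaphorins and for Vegfa, was at 56.0 to 68.5 CPM in the former and 17 to 25.6 CPM in the latter. The same 4 libraries were the highest for all 12 endothelial markers, for 6 of 9 pericyte and smooth muscle markers (Rgs5, Pdgfrb, Kcnj8, Abcc9, Myh11 and Cspg4) and for 3 of 12 fibroadipogenic progenitor markers (Ly6a, Dcn and Mfap5), and for none of the blood, muscle fibre, satellite cell and tenocyte markers. The pericyte gene Rgs5 was at 712 to 1066 CPM in them and at 171 to 460 CPM in the others. Each quiescent genotype holds 2 libraries of either kind, so the split runs across WT and KO. In these bulk libraries more cells of another type and more RNA per cell cannot be told apart, and the part of endothelial or pericyte transcripts in the results below was not tested beyond leaving those 4 libraries out.

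**Figure D2:**
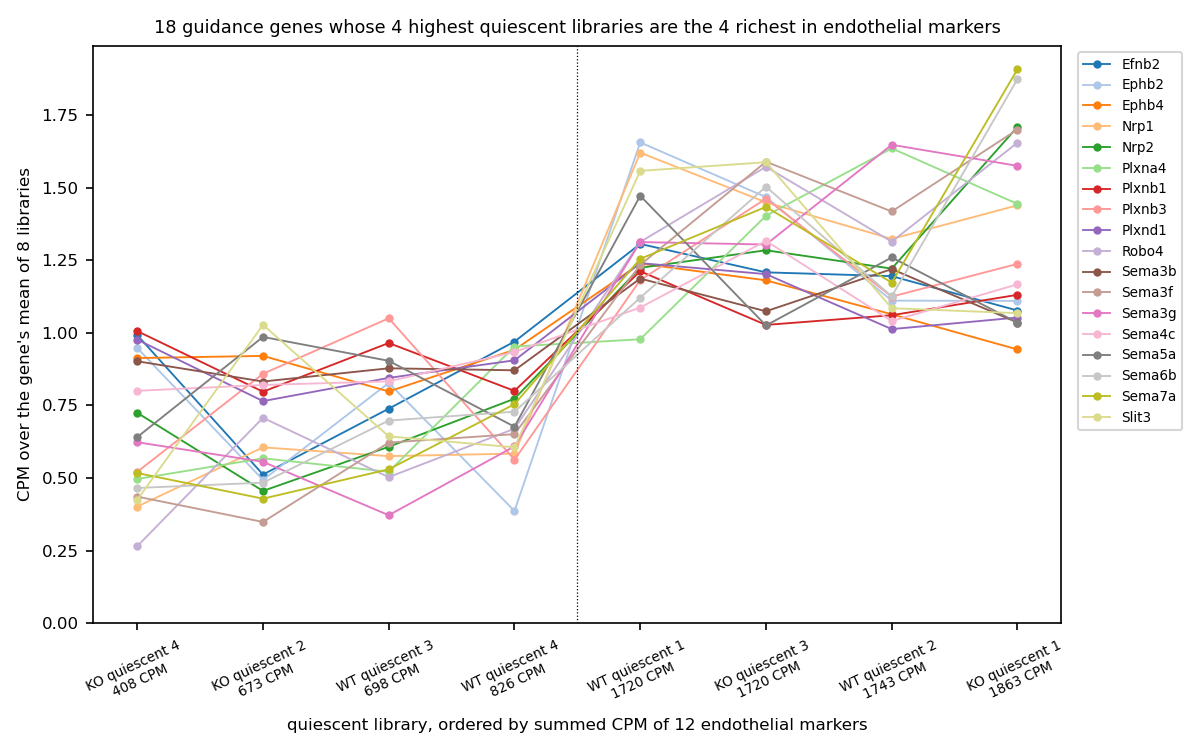
CPM of 18 guidance genes divided by each gene's mean over the 8 quiescent libraries (vertical), with the libraries ordered by the summed CPM of 12 endothelial markers given under each name. The dotted line parts the 4 libraries at 408 to 826 CPM from the 4 at 1720 to 1863 CPM, and every line lies higher to its right than at any point to its left.

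On activation the guidance genes moved mostly down. In WT, 5 of the 60 members were called higher and 26 lower, where 9.35% and 17% of all genes tested were. In KO, 3 were called higher and 31 lower, against 10.7% and 19% of all genes tested. The filter on low counts ran over all 12 libraries, so a gene could pass on its quiescent counts alone. Such a gene can be called lower but hardly higher, and the shares of all genes tested hold such genes too. On the activated libraries alone, 38 members passed the filter. The lower calls include Epha5, Robo2 and Robo3, with 0 to 2 counts in each activated group. The median log2 fold change of the members was -1.61 in WT and -1.74 in KO, or -1.60 and -1.65 with genes absent from an activated group set at their bound, beside -0.92 and -0.96 over all genes tested. These all-gene values depend on level: over the 9554 genes with an average log2 CPM over 3 the medians were -0.12 and -0.09. With a mean count of at least 10 required, which 59 members passed, the all-gene medians were -0.46 and -0.49. In that setting 23.4% and 25.8% of genes tested were called lower, and 14.1% and 16% higher. Lower in both genotypes were 23 members (12.7% of all genes tested were), and 3 were higher in both, namely Plxna1, Sema3c and Sema4d (7.59%). The 23 are 88.5% of those called lower in WT and 74.2% of those called lower in KO, 5 further members were called in WT alone, 8 in KO alone and 21 in neither. In 26 members all 4 activated libraries lay below all 8 quiescent ones, against 22.6% of all genes tested, and in 3 they all lay above, against 12.2%. Of the 23, 12 stayed called lower in both genotypes under each of 21 other settings, including each library left out in turn: Epha1, Epha4, Ephb3, Ephb4, Ephb6, Plxna2, Plxnb1, Plxnb3, Robo1, Sema3b, Sema4a and Sema4c. Without the 4 endothelial-rich libraries, 18 of the 23 were still lower in both genotypes and Epha5, Plxnc1, Sema6b and Slit2 were not. In that setting 58 members were tested, and Robo3 was not among them because it did not pass the filter on low counts. Nrp1, Plxna4 and Sema7a joined the 3 members higher in both. Their highest quiescent values were in exactly the libraries left out, so that choice by itself raises their change on activation. The activated libraries were all kept, with endothelial sums of 159 to 911 CPM. Sums of other cell types' markers were also lower in every activated than in any quiescent library: 2745 to 3869 against 982 to 1403 CPM for pericytes and smooth muscle (5 of 9 markers called lower in WT and 6 in KO), 263 to 631 against 59.6 to 208 CPM for Schwann and glial cells (6 and 5 of 7 tested), 89.7 to 371 against 40.8 to 67.5 CPM for blood (4 and 6 of 10) and 852 to 3886 against 387 to 840 CPM for fibroadipogenic progenitors (4 and 4 of 12, with 2 higher in KO). Tenocyte sums overlapped (158 to 849 against 105 to 537 CPM). These differences and those in muscle fibre markers, depth and sex stand beside all these counts, and their part was not tested.

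**Figure D3:**
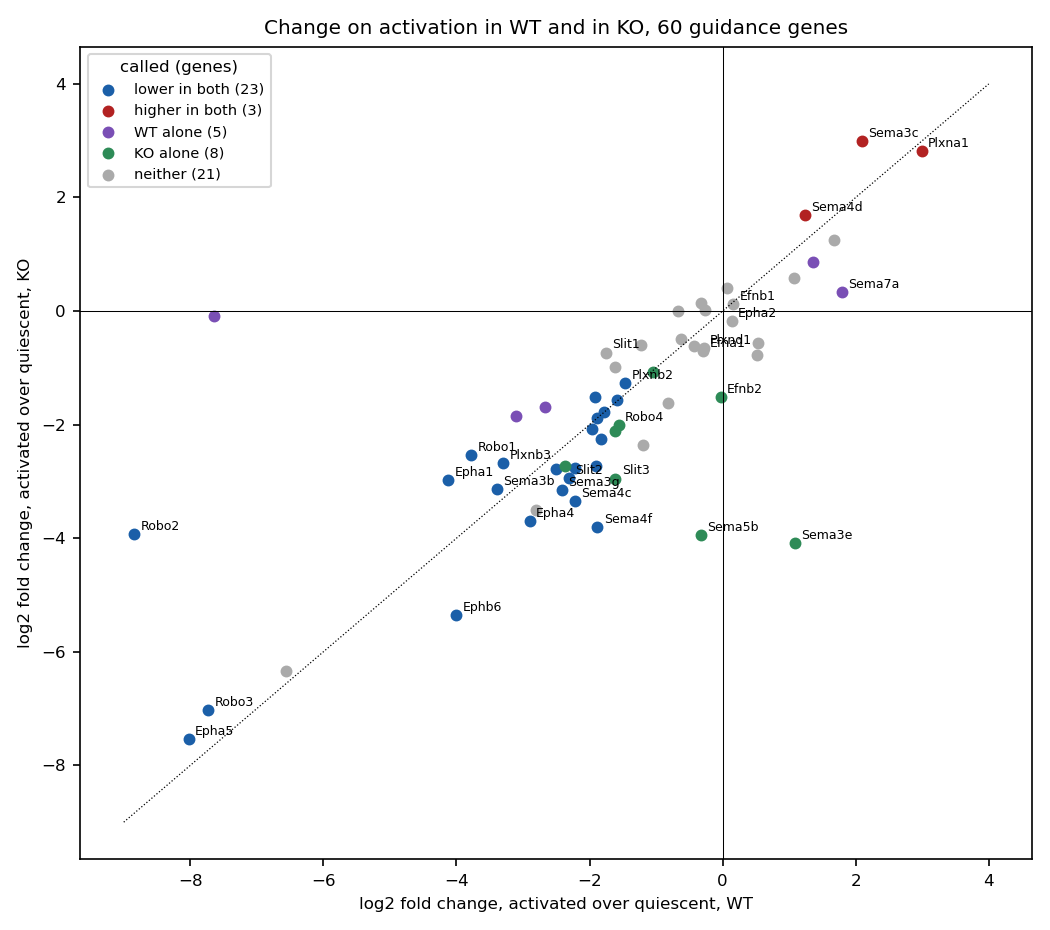
Fitted log2 fold change of activated over quiescent cells in WT (horizontal) and in KO (vertical) for the 60 genes, coloured by where they were called, with the diagonal dotted. The 23 genes lower in both lie at the lower left and the 3 higher in both at the upper right, and fitted values beyond about -6 belong to genes with an activated group at 0 counts.

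Plexins, the semaphorin receptors, changed in make-up while their summed level overlapped between the states. Plxna1, a receptor for class 3 and class 6 semaphorins, was at 46.0, 43.1, 46.9 and 49.5 CPM in WT quiescent and at 348 and 388 CPM in WT activated libraries. In KO it was at 44.9, 17.8, 56.4 and 72.2 CPM in quiescent and at 503 and 175 CPM in activated libraries. Every activated library was above every quiescent one, with log2 fold changes of 2.99 ± 0.39 (SE) in WT (adjusted p = 9.96e-06) and 2.82 ± 0.39 in KO (adjusted p = 1.58e-05). The gene lies at chr6:89316314-89362620 (GRCm38, minus strand), and 10.7% of its exon length overlaps Gm26811 on the opposite strand, whose reads could not be separated if counting ignored strand. Of the other 8 plexins, 6 were lower in both genotypes: Plxna2, Plxna3, Plxnb1, Plxnb2, Plxnb3 and Plxnc1. The calls of Plxna3 in KO (adjusted p = 0.11) and Plxnc1 in KO (0.1) were lost without KO activated 2, and that of Plxnc1 in WT without WT activated 1 (0.107) or WT activated 2 (0.181).

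Plxnb2, a receptor for class 4 semaphorins, was at 155 to 215 CPM in the 8 quiescent libraries and at 91.3 and 42.0 CPM in WT activated and 71.4 and 79.8 CPM in KO activated libraries (log2 fold changes -1.46 ± 0.29 and -1.27 ± 0.29, adjusted p = 0.000676 and 0.00196). Without WT activated 2 the change in WT was -0.97 (adjusted p = 0.0551), short of the threshold. Plxnb3 was at 4.77 to 13.4 CPM in quiescent libraries and at 1.14, 0.438, 1.28 and 1.60 CPM in the activated ones (log2 fold changes -3.30 ± 0.63 and -2.68 ± 0.58, adjusted p = 0.000522 and 0.00142). Plxnd1 was not called: it was at 149 to 242 CPM in quiescent and at 179, 142, 121 and 127 CPM in activated libraries (log2 fold changes -0.28 ± 0.25 and -0.65 ± 0.26). Plxna4 was called higher in WT alone (1.36 against 0.86 in KO), and without WT activated 1 its change in WT was 0.61 (adjusted p = 0.587). It also missed the threshold without WT quiescent 1, 3 or 4 (adjusted p = 0.0649, 0.0814 and 0.0605).

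Summed over the 9 plexins, the level per exon length was 59.9 to 83.9 CPM per kb in the quiescent and 52.8 to 86.6 CPM per kb in the activated libraries, so the states overlap. The share of Plxna1 in that sum was 6.75% ± 0.669 in WT quiescent, 6.68% ± 2.64 in KO quiescent, 52.7% ± 9.02 in WT activated and 50.4% ± 19.4 in KO activated libraries (SD, n = 4, 4, 2 and 2). Plxnb2 held 31.7% and 31.2% in the quiescent groups and 10.9% and 15.1% in the activated ones, and Plxnd1 34.9% and 35.1% against 28.1% and 26.0%. The co-receptors Nrp1 and Nrp2 were not called in either genotype (log2 fold changes 1.08 and 0.52 in WT, 0.58 and -0.77 in KO).

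**Figure D4:**
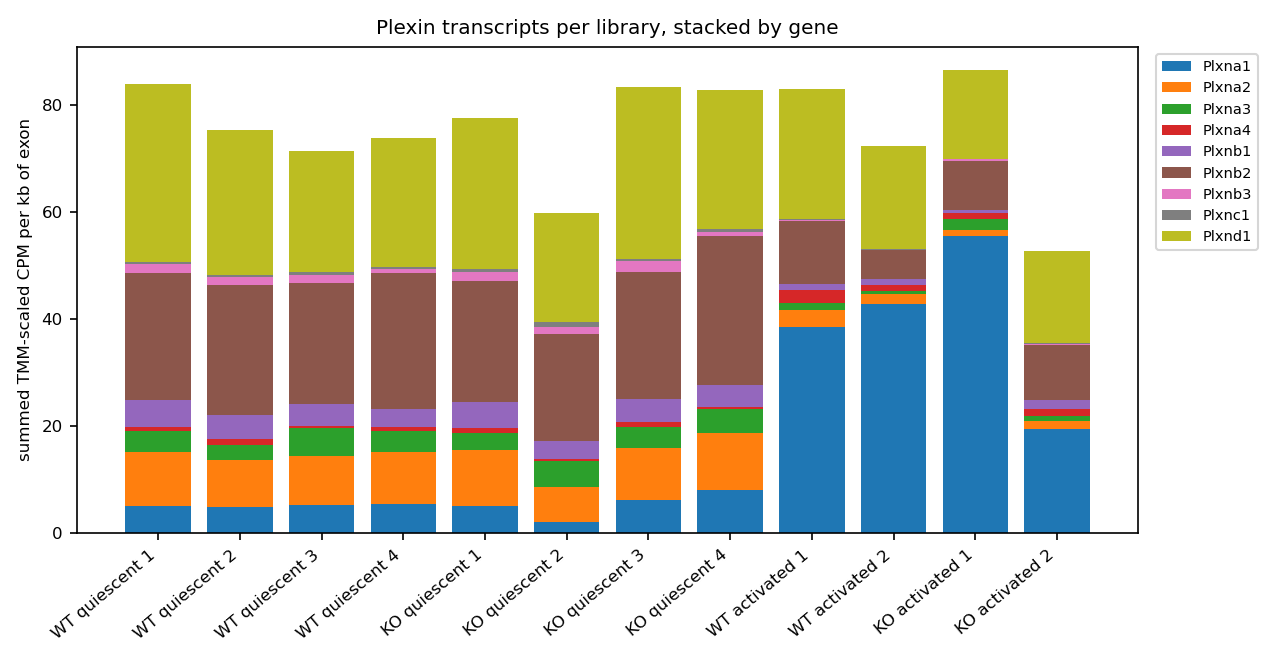
TMM-scaled CPM per kb of exon of the 9 plexin genes, stacked, in each of the 12 libraries (horizontal). The column heights of the 2 states overlap (59.9 to 83.9 against 52.8 to 86.6), while the bottom segment, Plxna1, goes from at most 9.61% of a column in quiescent libraries to at least 36.7% in activated ones.

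Among the 20 semaphorins, 6 were lower in both genotypes (Sema3b, Sema3g, Sema4a, Sema4c, Sema4f and Sema6b), 2 were higher in both (Sema3c and Sema4d) and 7 were called in neither. Sema3b, a secreted class 3 semaphorin, was at 87.3, 89.7, 64.6 and 64.1 CPM in WT quiescent and at 76.2, 61.2, 79.0 and 66.3 CPM in KO quiescent libraries. It was at 6.53 and 8.32 CPM in WT activated and at 5.14 and 10.9 CPM in KO activated libraries. No activated library reached the lowest quiescent one, and the log2 fold changes were -3.39 ± 0.35 and -3.13 ± 0.34 (adjusted p = 7.1e-07 and 1.09e-06). Sema4c was at 120 to 157 CPM in WT quiescent and 116 to 190 CPM in KO quiescent libraries, then at 34.0 and 25.8 CPM in WT activated and 13.6 and 15.5 CPM in KO activated libraries (log2 fold changes -2.22 ± 0.29 and -3.35 ± 0.32, adjusted p = 1.1e-05 and 2.19e-07). Of its exon length, 7.27% overlaps D430040D24Rik on the opposite strand.

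Sema3g, a class 3 semaphorin known from vessels, was at 28.1 to 124 CPM in the quiescent libraries and at 20.4 and 5.69 CPM in WT activated and 7.45 and 9.81 CPM in KO activated libraries (log2 fold changes -2.42 ± 0.60 and -3.15 ± 0.63, adjusted p = 0.00445 and 0.000719). Without WT activated 2 its change in WT was -1.80 (adjusted p = 0.0646). Sema4f was at 6.05 to 27.7 CPM in the quiescent and at 3.43, 8.76, 2.31 and 0.228 CPM in the activated libraries, and these ranges overlap. Its log2 fold changes were -1.88 ± 0.61 in WT (adjusted p = 0.0247) and -3.81 ± 0.74 in KO (adjusted p = 0.000499), and the call in WT was lost without WT activated 1 (-1.18, adjusted p = 0.345), WT quiescent 3 (0.0538) or WT quiescent 4 (0.0525). Sema4a, a class 4 semaphorin also known from immune cells, changed by -2.51 and -2.78. Sema6b changed by -1.78 in both genotypes, and its calls were lost without WT quiescent 1 or 2, WT activated 2, KO quiescent 1 or 3 or KO activated 1 (adjusted p from 0.0625 to 0.292).

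Sema3c, a secreted ligand acting through neuropilins and plexins, was at 2.59 to 6.11 CPM in WT quiescent and 1.65 to 4.44 CPM in KO quiescent libraries. It was at 15.2 and 20.6 CPM in WT activated and at 18.2 and 35.1 CPM in KO activated libraries (log2 fold changes 2.10 ± 0.44 and 2.99 ± 0.43, adjusted p = 0.00106 and 2.37e-05). Sema4d, the ligand of Plxnb1, was at 10.5 to 20.7 CPM in the quiescent and at 29.7, 39.8, 40.8 and 50.2 CPM in the activated libraries (log2 fold changes 1.24 ± 0.31 and 1.69 ± 0.30, adjusted p = 0.0048 and 0.000258). Without WT activated 2 its change in WT was 1.08 (adjusted p = 0.0559). Its receptor Plxnb1 went the other way, at -1.89 in WT and -1.89 in KO.

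Sema7a was called higher in WT alone. It was at 82.1, 76.8, 34.7 and 49.4 CPM in WT quiescent and at 237 and 184 CPM in WT activated libraries (log2 fold change 1.80 ± 0.45, adjusted p = 0.00531). In KO it was at 125, 28.1, 93.8 and 33.9 CPM in quiescent and at 115 and 62.3 CPM in activated libraries, which overlap (0.34 ± 0.47, adjusted p = 0.576). The test of the difference between these 2 changes gave -1.46 ± 0.67 with an adjusted p of 0.739. Without the 4 endothelial-rich libraries the change in KO was 1.54 (adjusted p = 0.00309), and Sema7a was then called in both genotypes. Those 4 are its highest quiescent libraries, and leaving them out keeps KO quiescent values of 28.1 and 33.9 CPM, so that choice by itself raises the change. Sema7a had the highest mean level per exon length of the 60 genes in the activated libraries, 45.4 ± 23.3 CPM per kb (n = 4), followed by Epha2 at 42.5 ± 8.34 and Plxna1 at 39.0 ± 15.0 CPM per kb, which lie within 1 SD of each other. The other members called in 1 genotype only were Sema3d lower in WT, and Sema3e, Sema5b and Sema6d lower in KO. Sema3d in WT lost its call without WT activated 1 (adjusted p = 0.164) or WT activated 2 (0.0962) and gained one in KO without KO quiescent 4 (0.0383). Sema6d in KO lost its call without any 1 library of KO quiescent 1, 3 or 4 or KO activated 1 or 2 (0.0575 to 0.275) and gained one in WT without WT activated 1 (0.000539).

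In the ephrin system, 7 of 14 Eph receptors were lower in both genotypes (Epha1, Epha4, Epha5, Ephb1, Ephb3, Ephb4 and Ephb6), where 12.7% of all genes tested were. In WT 9 were lower (17% of all genes tested) and in KO 8 (19%), and none was called higher. Of 8 ephrins none was called in WT, and Efna2 and Efnb2 were called lower in KO. The difference between receptors and ligands was not tested. Epha4, a receptor for both ephrin classes, was at 27.6, 22.1, 22.9 and 18.5 CPM in WT quiescent and at 25.7, 7.58, 22.8 and 19.5 CPM in KO quiescent libraries. It was at 3.59 and 2.19 CPM in WT activated and at 1.28 and 1.60 CPM in KO activated libraries (log2 fold changes -2.90 ± 0.49 and -3.70 ± 0.54, adjusted p = 0.000142 and 2.55e-05). The groups do not overlap.

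Epha1 was at 13.3 to 27.5 CPM in the quiescent and at 0.653, 2.19, 0.257 and 4.11 CPM in the activated libraries (log2 fold changes -4.12 ± 0.70 and -2.97 ± 0.61, adjusted p = 0.000146 and 0.000826), with 6.01% of its exon length shared with Zyx on the opposite strand. Ephb6, an Eph family member without kinase activity, was at 6.16 to 21.9 CPM in the quiescent libraries and at 1.31 and 0.438 CPM in WT activated ones (-4.0 ± 0.58, adjusted p = 2.97e-05). In KO activated libraries it had 2 counts in all, against 816 in KO quiescent libraries, a 42.7-fold lower level with an exact 95% counting interval of 11.8 to 353. Epha5 had 0 counts in the 4 activated libraries against 170 counts in WT quiescent and 122 in KO quiescent libraries, so it was at least 6.2-fold lower in WT and at least 4.26-fold lower in KO, taking 3 counts over the activated group as the limit that a count of 0 allows. The call of Epha5 was lost without WT activated 1 (adjusted p = 0.129), KO activated 1 (0.0831) or KO activated 2 (0.0942).

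The summed EphB level was 16.6 to 24.2 CPM per kb in the quiescent and 4.05 to 5.68 CPM per kb in the activated libraries, with no overlap. The EphA sum overlapped between the states (40.8 to 66.3 against 36.0 to 54.2 CPM per kb). Epha2 made up 81.0% ± 5.15 and 85.3% ± 1.99 of the EphA sum in WT and KO quiescent libraries and 97.6% ± 0.569 and 97.4% ± 2.05 in WT and KO activated ones. Its own level was 176, 173, 172 and 230 CPM in WT quiescent, 218, 159, 219 and 273 CPM in KO quiescent, 248 and 164 CPM in WT activated and 172 and 212 CPM in KO activated libraries. These overlap throughout (log2 fold changes 0.14 ± 0.26 and -0.18 ± 0.27).

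Efnb1, a transmembrane ephrin, was at 18.2 to 49.4 CPM in the quiescent and at 51.0, 45.5, 54.5 and 28.3 CPM in the activated libraries (log2 fold changes 0.16 ± 0.34 and 0.13 ± 0.34). Efna1, a GPI-anchored ephrin and ligand of Epha2, was at 9.35 to 35.6 CPM in the quiescent and at 24.5, 8.32, 6.42 and 17.3 CPM in the activated libraries (-0.29 ± 0.49 and -0.71 ± 0.51). Both overlapped between the states. Efna3, Efna4, Efna5 and Efnb3 were not called either, with log2 fold changes from -2.36 to 0.53. For the receptors Epha3 and Epha7 the call was in WT alone, for Ephb2 in KO alone, and Epha2, Epha6, Epha8 and Epha10 were called in neither. Several of these calls rested on 1 library. Epha3 lost its call without WT quiescent 2 (adjusted p = 0.051), WT activated 1 (0.235) or WT activated 2 (0.0911), Epha7 without WT activated 1 (0.153) or WT activated 2 (0.137), and Ephb1 in WT without WT activated 1 (0.15). Ephb2 lost its call without KO quiescent 1, 3 or 4 or KO activated 2 (0.0551 to 0.384). Efna2 lost its call in KO without KO activated 2 (0.212) and gained one in WT without WT quiescent 4 (0.0205).

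In the Slit system, 3 of the 4 Robo receptors and 1 of the 3 Slits were lower in both genotypes. Robo1 was at 39.5, 40.8, 41.0 and 46.6 CPM in WT quiescent and at 12.8, 32.5, 40.7 and 46.4 CPM in KO quiescent libraries. It was at 2.78 and 3.50 CPM in WT activated and at 6.16 and 5.25 CPM in KO activated libraries, all below the quiescent ones (log2 fold changes -3.78 ± 0.48 and -2.54 ± 0.43, adjusted p = 7.86e-06 and 0.000151). Robo2 had 284 counts in WT quiescent and 0 in WT activated libraries, at least 10.4-fold lower, and 279 counts in KO quiescent and 2 in KO activated libraries, 14.6-fold lower with a counting interval of 4.01 to 121. Robo3 had 0 counts in the 4 activated libraries, against 139 in WT quiescent and 91 in KO quiescent libraries, at least 5.07-fold and 3.18-fold lower.

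Slit2 was at 2.69 to 6.94 CPM in the quiescent and at 0.817, 1.31, 0.257 and 1.14 CPM in the activated libraries (log2 fold changes -2.31 ± 0.68 and -2.94 ± 0.70, adjusted p = 0.0144 and 0.00299). The calls of Robo2, Robo3 and Slit2 did not hold in every subset. Robo2 lost its call without WT activated 1 (adjusted p = 0.0559), KO activated 1 (0.0777) or KO activated 2 (0.0944), and Robo3 without any 1 of the 4 activated libraries (0.0516 to 0.147). Slit2 lost its call without WT activated 1 (0.241), WT activated 2 (0.0591) or KO activated 1 (0.0755). Robo4 and Slit3 were called lower in KO alone. Robo4 was at 23.4 and 6.13 CPM in WT activated and at 3.34 and 21.7 CPM in KO activated libraries. The higher value of each pair is in the library with the higher endothelial sum, which was 911 and 159 CPM in WT activated and 171 and 492 CPM in KO activated libraries. The part of endothelial transcripts in these Robo4 values was not tested. Without KO activated 1, Robo4 in KO was at -1.24 (adjusted p = 0.305), and it also missed the threshold without KO quiescent 1 (0.0778) or KO quiescent 3 (0.0732). In WT, where Robo4 was not called, it was without WT activated 1 (-2.83, adjusted p = 0.0431). Slit3, at 3.45 to 12.9 CPM in the quiescent and at 3.43, 1.31, 0.514 and 1.60 CPM in the activated libraries, changed by -1.61 ± 0.63 in WT (adjusted p = 0.0588) and -2.95 ± 0.71 in KO (adjusted p = 0.0034). Without KO activated 1 the adjusted p of Slit3 in KO was 0.0617, and without WT quiescent 4 that in WT was 0.0462, past the threshold. Slit1 was at 0.519 to 4.33 CPM in the quiescent and at 1.31, 0, 1.28 and 0.684 CPM in the activated libraries and was not called.

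The sequence before the start is shown for 4 receptors to set genes that fell beside relatives that were not called, a pair of plexins and a pair of Eph receptors, in each pair 1 lower in both genotypes and 1 called in neither. Each stretch is the 120 bases before the RefSeq start in GRCm38.p6, 5′ to 3′ on the gene's strand, free of annotated exons. Capitals mark matches on either strand to 1 of 4 motifs: the E-box CANNTG, bound by basic helix-loop-helix factors such as Myod1, the AP-1 site TGANTCA, the cyclic AMP response element (CRE) TGACGTCA and the GC box GGGCGG, bound by Sp factors. The positions are chr15:89180789-89180908 (minus strand) for Plxnb2, chr6:115995006-115995125 (minus) for Plxnd1, chr1:77515089-77515208 (minus) for Epha4 and chr4:141301101-141301220 (plus) for Epha2.
Plxnb2, lower in both: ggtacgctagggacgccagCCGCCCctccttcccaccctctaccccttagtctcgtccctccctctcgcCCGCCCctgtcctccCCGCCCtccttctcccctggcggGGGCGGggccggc
Plxnd1, called in neither: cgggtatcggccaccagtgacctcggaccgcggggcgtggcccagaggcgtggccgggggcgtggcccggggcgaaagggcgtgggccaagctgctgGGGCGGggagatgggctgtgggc
Epha4, lower in both: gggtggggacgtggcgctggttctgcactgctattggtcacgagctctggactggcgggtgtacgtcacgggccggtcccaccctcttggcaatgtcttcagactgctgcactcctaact
Epha2, called in neither: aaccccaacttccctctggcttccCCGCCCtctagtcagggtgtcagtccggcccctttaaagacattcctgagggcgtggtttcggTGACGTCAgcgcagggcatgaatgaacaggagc

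Plxnb2 holds 4 GC boxes in its stretch, Plxnd1 holds 1, Epha4 holds no match and Epha2 holds 1 GC box and 1 CRE. Over windows of 250 bases before to 50 bases after the start, 53 of the 60 members matched a promoter. A GC box was found in 73.6% of them, against 53.2% of the 15089 promoters of tested genes, and in 77.3% of those of members lower in both genotypes and 82.4% of those called in neither. An E-box was found in 52.8% of the members' windows against 67.0% of all, an AP-1 site in 1.89% against 6.28% and a CRE in 1.89% against 2.64%. These shares are descriptions of letters in a window.

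No guidance gene was called between KO and WT in either state. In the activated libraries the drop in Cxcr4 was itself not called (log2 fold change -1.35, adjusted p = 0.381). KO activated 2 held 13.7 CPM of Cxcr4 and WT activated 2 held 14.5 CPM. The paper reports that just after tamoxifen CXCR4 protein on satellite cells had fallen less than the transcript. In quiescent cells, none of the 60 members was called between KO and WT and none had an unadjusted p under 0.05, where 0.0155% of all genes tested were called and 1.74% had such a p. DESeq2 also called none. The members' log2 fold changes ran from -0.75 to 0.74 with a median of -0.03 (0.02 over all genes tested). In activated cells none was called (0.0504% of all genes tested were), the lowest adjusted p was 0.252 and the median was -0.11 (0 over all genes tested). Not every member could be called there, because a call also required the minimum average count given above. Sema3e and Sema5b, at 6.5 and 6.25 counts on average in the activated libraries, lay under it. Epha5, Epha6 and Robo3 had 0 counts in all of these libraries. On the activated libraries alone, 38 members passed the filter on low counts. An unadjusted p under 0.05 was found in 8 members, beside 8.37% of all genes tested. With 2 libraries in each activated group, a p that misses the threshold does not show that levels did not differ. The quiescent comparison could also miss changes: in simulated counts it called 31% of 2-fold changes, and the activated comparison called 7%. A 2-fold change lies at the fold-change threshold itself, so estimates that fell below it were not called whatever their p. These 2 shares therefore do not measure the power of the test alone. Of 4-fold changes, the quiescent comparison called 93% and the activated comparison 56%.

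In 4 members the unadjusted p was under 0.01 (2.51% of all genes tested), and each had its lower values in KO activated cells. Efnb2, the ephrin that marks arterial endothelium and also acts in other cells (chr8:8617434-8661242, minus strand), was at 128 and 36.8 CPM in WT activated and at 20.5 and 32.6 CPM in KO activated libraries (log2 fold change -1.65 ± 0.48, adjusted p = 0.252). The groups do not overlap, though WT activated 2 lies close to the KO values, and WT activated 1, which is high, also had the highest endothelial sum of the 4 (911 CPM). Whether endothelial transcripts account for it was not tested. Efnb2 was called with DESeq2 (-1.68, adjusted p = 0.0457), with no filter on low counts (adjusted p = 0.0018) and without WT activated 2 (-2.35, adjusted p = 0.00684), and in the remaining settings it was not. The paper's own DESeq2 list of genes changed in activated KO cells, at the same thresholds, does not include Efnb2. In quiescent cells Efnb2 was at 59.7 to 106 CPM in WT and 41.4 to 97.7 CPM in KO. On activation its change was -0.03 ± 0.39 in WT and -1.52 ± 0.43 in KO (adjusted p = 0.0104), and without KO activated 1 the latter was -1.24 (adjusted p = 0.13).

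Sema4c, at 34.0 and 25.8 CPM in WT activated against 13.6 and 15.5 CPM in KO activated libraries, had a log2 fold change of -1.05 ± 0.32 (adjusted p = 0.306). Sema3e, a class 3 semaphorin that binds Plxnd1, was at 3.27 and 2.19 CPM in WT activated and at 0 and 0.228 CPM in KO activated libraries, 1 count in all (-4.44 ± 1.41, adjusted p = 0.327). Sema5b was at 3.59 and 0.876 CPM in WT activated and at 0.257 and 0 CPM in KO activated libraries, also 1 count in all (-4.21 ± 1.42, adjusted p = 0.372). Between the states within KO these single counts gave ratios of 17-fold lower for Sema3e (counting interval 3.0 to 674) and 17.8-fold lower for Sema5b (3.15 to 707). Their calls within KO were lost without KO activated 1 (adjusted p = 0.199 and 0.0612) or KO activated 2 (0.0641 and 0.237), and that of Sema5b also without KO quiescent 3 (0.0679). Non-overlapping WT and KO activated libraries are common in this comparison, at 24.7% of all genes tested.

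Whether the effect of Cxcr4 loss differed between activated and quiescent cells was tested as an interaction. None of the 60 members was called (0% of the 25771 genes tested were), and 7 members had an unadjusted p under 0.05 (6.59% of all genes tested had). The lowest adjusted p among members was 0.461, for Sema3e (-5.18 ± 1.56), and Sema4c had -1.12 ± 0.38 (adjusted p = 0.581).

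**Figure D5:**
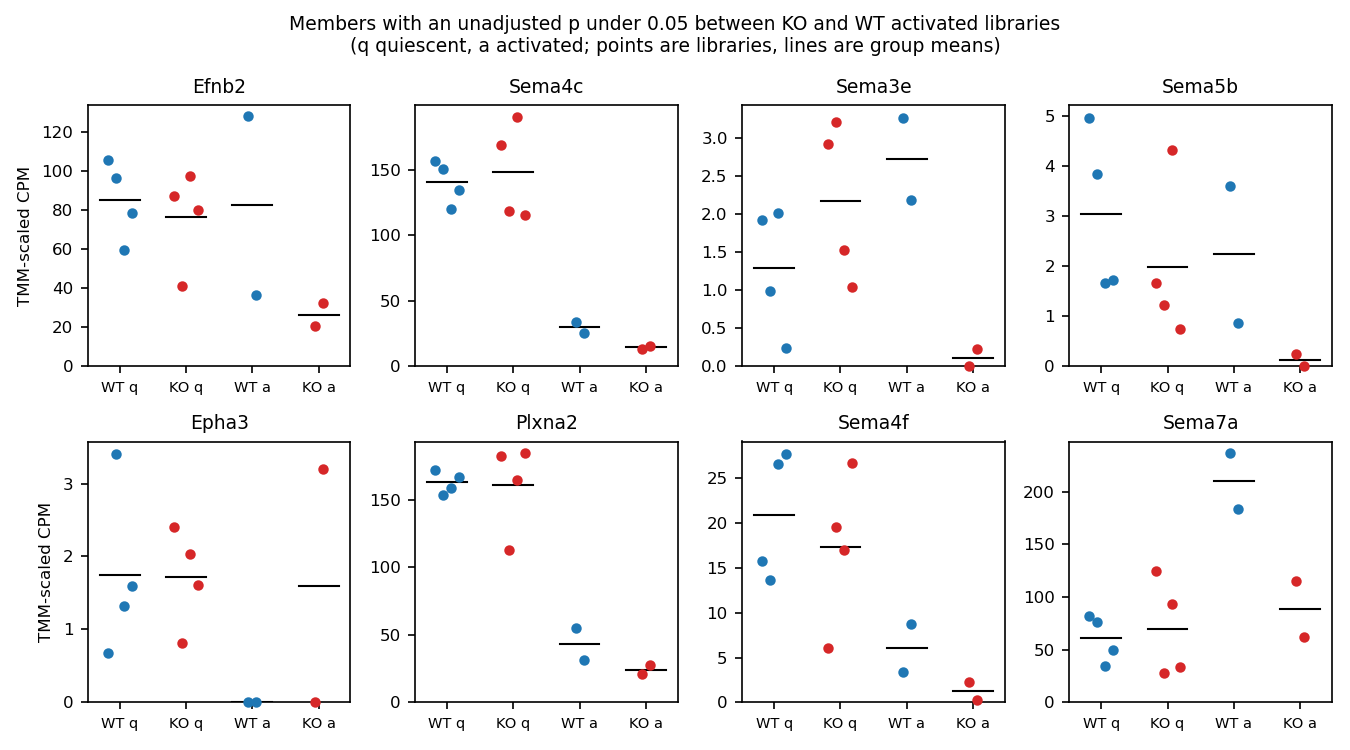
TMM-scaled CPM (vertical, from 0) in each library of the 4 groups for the 8 genes with an unadjusted p under 0.05 between KO and WT activated cells, with group means as lines, WT in blue and KO in red. In 7 of the 8 the 2 KO activated libraries lie below the 2 WT activated ones, Epha3 rests on 1 KO library, and none of the 8 passed the adjusted threshold.

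Other genes of these pathways were taken from a list of 84 receptors, adaptors and cytoskeletal effectors, 83 of them tested. None was called between KO and WT in either state, though Dcc, with 0 counts in every activated library, could not be called in activated cells. On activation, 7 were higher and 28 lower in WT, where 9.35% and 17% of all genes tested were, and 7 were higher and 36 lower in KO, against 10.7% and 19%. The counts of higher genes are near those shares, which depend on the filter on low counts. With a mean count of at least 10 required, 14.1% of all genes tested were higher in WT and 16% in KO. Lower were 23.4% and 25.8%. The largest rises called in both genotypes were those of Met, the hepatocyte growth factor receptor, which pairs with class B plexins, at 41.5 to 77.4 CPM in WT quiescent and 303 and 313 CPM in WT activated libraries (log2 fold changes 2.49 ± 0.32 and 2.44 ± 0.32). Acp1, a low molecular weight phosphatase acting on Eph receptors, changed by 1.86 ± 0.26 and 1.74 ± 0.26. Mical2, an actin-oxidising enzyme of the family downstream of plexins, changed by 1.63 ± 0.30 and 1.37 ± 0.30.

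By fitted log2 fold change, which is no measure of size where a group has 0 counts, the netrin receptors Dcc and Unc5c and Ptpn13, a phosphatase of ephrin-B ligands, came lowest. Dcc had 158 counts in WT quiescent, 207 in KO quiescent and 0 in the activated libraries, at least 5.76-fold and 7.22-fold lower. Unc5c had 156 counts in WT quiescent against 2 in WT activated libraries, 8.54-fold lower with a counting interval of 2.32 to 71.1, and was at least 6.7-fold lower in KO. Dpysl5, a collapsin response mediator protein named after its values were seen, had 498 counts in WT quiescent against 2 in WT activated libraries, 27.2-fold lower (counting interval 7.5 to 226), and 540 against 2 in KO, 28.3-fold lower (7.79 to 234). The call of Dcc in WT was lost without WT activated 1 (adjusted p = 0.116), and that of Unc5c in WT without WT activated 1 (0.11), WT activated 2 (0.213), WT quiescent 1 (0.0516) or WT quiescent 2 (0.0733). Ptpn13 was at 22.1 to 45.2 CPM in the 8 quiescent libraries and at 1.47, 1.31, 0.771 and 1.37 CPM in the activated ones (log2 fold changes -4.8 ± 0.42 and -4.85 ± 0.43, adjusted p = 1.06e-07 and 1.05e-07). The semaphorin and plexin side of the list had 13 of 24 tested genes lower in WT and 15 in KO.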

How the data were processed

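Per the study's methods, paired-end reads of poly(A) RNA libraries (NEBNext Ultra) were trimmed with Trim Galore 0.6.0, mapped to GRCm38.p6/mm10 with STAR 2.7.2a and counted per GENCODE M25 gene with Rsubread. Strand and multi-mapping settings are not given in the sources used here. The authors deposited raw counts of 55401 genes for 12 libraries and FPKM with 1 value per group.

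Counts were filtered with filterByExpr and tested in 1 model of 4 groups with edgeR 4.0.16 (quasi-likelihood F test, TMM scaling, Benjamini-Hochberg adjustment over 25771 genes, all tests two-sided) in R 4.3.3. Standard errors are the log2 fold change over the square root of F. Level per kb used union exon lengths of GENCODE M21 (GRCm38). Intervals and bounds cover counting error only. The fit was tested on simulated counts, with 100 genes changed 2-fold and 100 changed 4-fold in each of 3 comparisons. Of the 2-fold changes, 31% were called for KO against WT quiescent, 7% for KO against WT activated and 5% for activation in WT. These changes lie at the fold-change threshold, so estimates that fell below it were not called whatever their p. Of the 4-fold changes, 93%, 56% and 76% were called. DESeq2 1.42.0, other scalings and filters, a replicate block and leaving out libraries were alternatives. Promoter sequences are RefSeq, GRCm38.p6.

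Members and lists were chosen with earlier results of these data known. Values in every library are given for the 4 members of each system with the highest quiescent level per kb, the 4 largest changes in each direction called in both genotypes, and KO comparisons with an unadjusted p under 0.01. Plxna4 and further members named outside this rule, and library subsets by endothelial sum, were added after values were seen.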

Additional observations from a re-analysis of the deposited data

Results flagged for a closer look

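Among 120 sets of 4 quiescent libraries of 1 genotype (60 members in WT and in KO), 4 held a library whose gap to the nearest other one exceeded the 95% limit of Dixon's test, where chance gives about 1 set in 20. Epha2 was at 230 CPM in WT quiescent 4 against 172 to 176 CPM in the other 3. Efna5 was at 8.34 CPM in KO quiescent 2 against 3.61 to 3.82 CPM. Ephb4 was at 56.0 CPM in KO quiescent 3 against 43.3 to 44.7 CPM, and Sema5a was at 6.75 CPM in KO quiescent 4 against 10.4 to 10.9 CPM.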

How the results depend on the processing

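The count of members called lower between KO and WT activated cells was 0, but 3 with no filter on low counts (Efnb2 at -1.65, Sema4f at -2.20 and Sema7a at -1.25) and 1 with DESeq2 (Efnb2), and 0 to 1 over the fits that leave out 1 library. Over all genes the same contrast gave 5 lower and 8 higher calls, 179 and 115 with no filter, and 86 and 59 with DESeq2. In the partner list the corresponding count was 0, with 1 (Dpysl3) under no filter and 0 to 1 over the fits that leave out 1 library. Without the 4 endothelial-rich quiescent libraries, an alternative chosen after seeing the data, members higher on activation in KO were 6 in place of 3, and partner genes higher in KO were 4 in place of 7. The members that joined, Nrp1, Plxna4 and Sema7a, had their highest quiescent values in exactly those libraries, which by itself raises their change. Leaving out 1 library, members called lower on activation in KO ranged from 20 (without KO activated 1) to 32 and higher stayed at 3, members in WT ranged from 18 to 27 lower and 4 to 5 higher, and partner genes higher ranged from 4 to 7 in WT (4 without WT quiescent 1) and from 4 to 7 in KO (4 without KO activated 2). The cause of the other shifts was not tested, beyond the fewer libraries in each such fit.

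Members that were called neither way changed sign in places. For Efnb2 in WT (-0.03) the value was 0.01 with DESeq2 size factors, 0.04 with a mean count of at least 10, 0.03 on the compared groups alone, 0 without CT010467.1 and 0 with DESeq2, 0.31 without the endothelial-rich libraries, and 0.11, 0.07 and 0.65 without WT quiescent 1, WT quiescent 2 and WT activated 2 (leaving out 1 library in turn gave -1.13 to 0.65). Epha3 in KO (-0.08) was at 0.42 without the endothelial-rich libraries and 0.13, 0.01 and 0.88 without KO quiescent 1, KO quiescent 3 and KO activated 1 (-7.71 to 0.88). Sema5b in WT (-0.33) was at 0.50 without the endothelial-rich libraries and at 0.01 and 0.30 without WT quiescent 1 and WT activated 2 (-1.71 to 0.30). Efna1 in WT (-0.29) was at 0.23 without the endothelial-rich libraries and at 0.13 and 0.30 without WT quiescent 2 and WT activated 2 (-1.24 to 0.30). Efnb1 in KO (0.13) was at -0.07 and -0.42 without KO quiescent 2 and KO activated 1 (-0.42 to 0.55), Sema7a in KO (0.34) at -0.18 without KO activated 1 (-0.18 to 0.78), and Epha2 in WT (0.14) at -0.12 without WT activated 1 (-0.12 to 0.46).

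Same-numbered WT and KO libraries correlated in their deviations from the group means at 0.03, 0.12, -0.01 and 0.22 in quiescent and -0.04 in activated cells. Differently numbered quiescent pairs ran from -0.17 (WT 2 with KO 4) to 0.05 (WT 1 with KO 3). With 2 libraries per activated group the other pairing can only give the opposite sign (0.04). These values do not settle whether the replicate numbers pair the samples. With the replicate number as a block, 26 members were lower in both genotypes, of which 22 were among the 23, and 3 were higher. Called lower were 30 in WT and 31 in KO, higher 4 and 3, and Plxna4 in WT was no longer called (1.05, adjusted p = 0.131). The 112 levels of named members per kb lay within 1 SD of the deposited FPKM.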
